A study of Mus musculus with 2 samples.

Results

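The genes of cholesterol synthesis, uptake and transport were followed across the cell types of mouse dorsal root ganglia. A fixed list gave 33 genes, and each was looked up by symbol among the 31253 genes counted in the study, where all 33 were found. They were described as 18 genes of synthesis, from Acat2 to Dhcr7 along the pathway, and 15 genes of regulation, uptake and transport. Levels are unique molecular identifiers (UMIs, each marking 1 captured RNA molecule) of a gene per 10000 UMIs of a cell class, so a level is a share of a class's RNA and not an amount per cell.

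The ganglia came from lumbar levels L4-5 of wild-type adult mice aged 8 weeks, and 2 droplet single-cell libraries were made from them. Both carry the group label acetone-ether-water (AEW), the name of a treatment that strips lipids from skin and serves as a model of dry-skin itch. Dissociation used Liberase, EDTA and papain with trituration, and the labels name the cell type as Neuron. The labels give no untreated group and do not say that the libraries came from separate animals, so all comparisons lie between cell classes and their p-values may measure technical spread.

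Cholesterol is built from acetyl-CoA, first along the mevalonate route to farnesyl diphosphate, then through squalene to lanosterol, and finally by trimming lanosterol to cholesterol. When sterol falls, SCAP carries the transcription factors SREBP1 and SREBP2 out of the endoplasmic reticulum, INSIG proteins hold them back, and the released factors switch on the synthesis genes together with the CCAAT-binding factor NF-Y. In nerve tissue, glia are known for making sterol for myelin and for passing cholesterol to neurons on apolipoprotein E particles.

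Promoter sequences are shown first, since shared promoter elements are a textbook feature of the synthesis genes. Their part in the levels given below was not tested. RefSeq windows on GRCm38.p6, from 250 bases before to 50 bases after each start, were at hand for 26 of the 33 members. The 7 members with no window were Fdps, Fdft1, Sqle, Npc1, Abcg1, Stard4 and Lpl. Each window was searched on both strands for the sterol regulatory element TCACNCCAC, for CCAAT and for the GC box GGGCGG, where neighbouring CCAAT and GC matches can share their G or C letters. CCAAT was present for 14 of 15 synthesis genes (93.3%), for 6 of 11 regulation and transport genes (54.5%) and for 41.1% of the 27025 genes with a window. A gene with several windows counted if any of them matched. By window, CCAAT was in 14 of 18 for synthesis (77.8%) and 7 of 18 for regulation and transport (38.9%). Over all 32851 windows the share was 37.4%. The GC box was present for 14 of 15 synthesis genes and 9 of 11 others (81.8%), against 38.2% of all genes. The TCACNCCAC letters were found for 1 synthesis gene, Hmgcs1, and for 1.44% of all genes. These are matches of letters and not measured binding.

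The 250 bases before the start are printed for 4 synthesis genes, on the gene's own strand, with CCAAT or its reverse ATTGG and the sterol element in capitals. Hmgcs1 (HMG-CoA synthase, plus strand, chr13:119690101-119690350) held 3 of them in this stretch and the sterol element at -137 from the start. Nsdhl (a sterol dehydrogenase, plus strand, chrX:72918271-72918520) held them at -109 and -20. Lss (lanosterol synthase, plus strand, chr10:76531355-76531604) held 1, at -62. Acat2 (cytosolic acetyl-CoA acetyltransferase, minus strand, chr17:12960726-12960975) is shown as the synthesis gene whose windows held none.
Hmgcs1: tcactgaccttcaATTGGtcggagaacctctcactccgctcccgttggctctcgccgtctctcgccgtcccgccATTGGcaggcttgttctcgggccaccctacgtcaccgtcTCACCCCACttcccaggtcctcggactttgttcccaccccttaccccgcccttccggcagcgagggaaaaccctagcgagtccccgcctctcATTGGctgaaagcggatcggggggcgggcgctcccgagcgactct
Nsdhl: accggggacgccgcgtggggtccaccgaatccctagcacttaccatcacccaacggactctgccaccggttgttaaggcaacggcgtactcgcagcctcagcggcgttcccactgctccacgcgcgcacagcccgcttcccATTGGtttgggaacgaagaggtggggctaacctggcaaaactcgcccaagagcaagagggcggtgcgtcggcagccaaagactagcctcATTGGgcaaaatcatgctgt
Lss: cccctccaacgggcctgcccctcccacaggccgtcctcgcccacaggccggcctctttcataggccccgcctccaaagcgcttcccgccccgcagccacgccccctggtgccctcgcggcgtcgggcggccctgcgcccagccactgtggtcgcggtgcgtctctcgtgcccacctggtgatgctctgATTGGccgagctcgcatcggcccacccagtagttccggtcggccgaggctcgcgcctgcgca
Acat2: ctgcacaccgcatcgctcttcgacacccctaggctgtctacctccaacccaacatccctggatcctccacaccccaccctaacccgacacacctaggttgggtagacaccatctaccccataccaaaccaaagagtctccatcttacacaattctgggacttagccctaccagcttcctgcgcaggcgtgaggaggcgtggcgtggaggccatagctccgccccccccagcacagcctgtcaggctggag

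Cells were assigned to classes by sets of marker genes that held no member of the list. In all, 5545 and 6388 cells of libraries 1 and 2 were gated, at 113251556 and 102347251 UMIs per library. Satellite glia, which wrap neuron cell bodies, numbered 2297 and 2457, and neurons numbered 594 and 895, so most gated cells were not of the labelled type. Barcodes with neuron markers but under 10000 UMIs, 1353 and 2427 of them, were kept apart. The 6 satellite glia markers were also counted outside satellite glia. They stood at 183 and 174 per 10000 in satellite glia, at 2.17 and 12.6 in erythroid cells, and at 3.49 and 3.99 in neurons. They were lower in library 2 than in library 1 in neutrophils (21.0 and 11.1) and endothelial cells (17.3 and 16), and higher in the other 8 classes beside satellite glia. The libraries shared 24 cell barcodes.

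Summed over the 18 synthesis genes, satellite glia had the highest level of the 11 classes. The sum was 61.0 in library 1 and 68.1 in library 2. Myelinating Schwann cells, the sheath-forming glia, had 29.0 and 36.5, and neurons had 26.4 and 28.1. The satellite glia values lay above all others in both libraries, and both Schwann values lay above both neuron values, with the lower Schwann value close to the higher neuron value.

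Non-myelinating Schwann cells, which bundle thin axons, followed at 19.8 and 26.4 per 10000. The 7 vascular, connective, immune and erythroid classes lay between 2.71 and 14.1. Neutrophils had 11.3 and 14.1, fibroblasts 6.51 and 11.4, and macrophages 6.07 and 9.48. Endothelial cells had 5.42 and 6.80, with satellite glia markers at 9.48% and 9.22% of their satellite glia level and the synthesis sum at 8.89% and 9.99% of its satellite glia level. In myelinating Schwann cells the markers stood at 4.42% and 9.71% and the synthesis sum at 47.5% and 53.7% of satellite glia. Among the lower classes, levels were higher in library 2 than in library 1 in every one, as were the satellite glia markers in all of them except endothelial cells and neutrophils. The part of satellite glia RNA in these low sums was not tested.

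**Figure D1:**
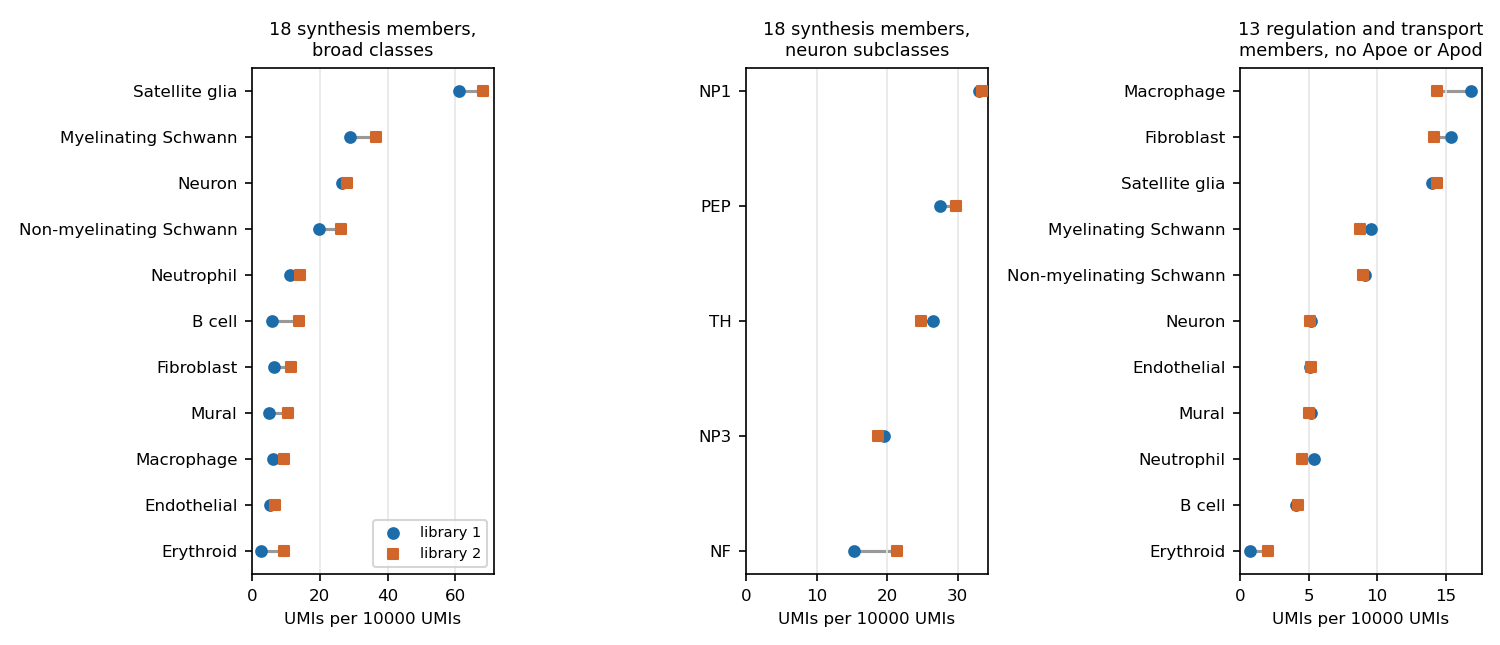
Summed UMIs per 10000 UMIs (x axis) by cell class (y axis) in library 1 (circles) and library 2 (squares), for the 18 synthesis genes in broad classes and in neuron subclasses, and for 13 regulation and transport genes. Satellite glia lie at 61.0 and 68.1 in the left panel, apart from all other classes, while macrophages, fibroblasts and satellite glia share the upper end of the right panel.

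These levels are shares of RNA, and neurons are far larger cells. A gated neuron carried 112486 and 55862 UMIs on average in libraries 1 and 2, against 8580 and 7067 for a satellite glial cell. Counted per cell, neurons therefore held 297 and 157 UMIs of the synthesis genes and satellite glia 52.3 and 48.1. Per cell the order of these classes was the reverse of their order per 10000 UMIs.

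Of the 18 synthesis genes, 17 had their highest mean level in satellite glia. For 15 of these the lower satellite glia library lay above the higher library of the next class. The exceptions were Fdft1 and Ebp, whose satellite glia and neuron values overlapped, and Acat2, highest in neurons at 1.15 and 1.00 per 10000 against 0.855 and 1.06 in satellite glia, which also overlapped. Across the 11 classes the synthesis genes ranked the classes alike, with a median Spearman correlation of 0.90 over 153 pairs of genes. The median was 0.36 over the 105 pairs of regulation and transport genes. All points of these correlations share the same 2 libraries and their depth, and they are given as a description.

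**Figure D2:**
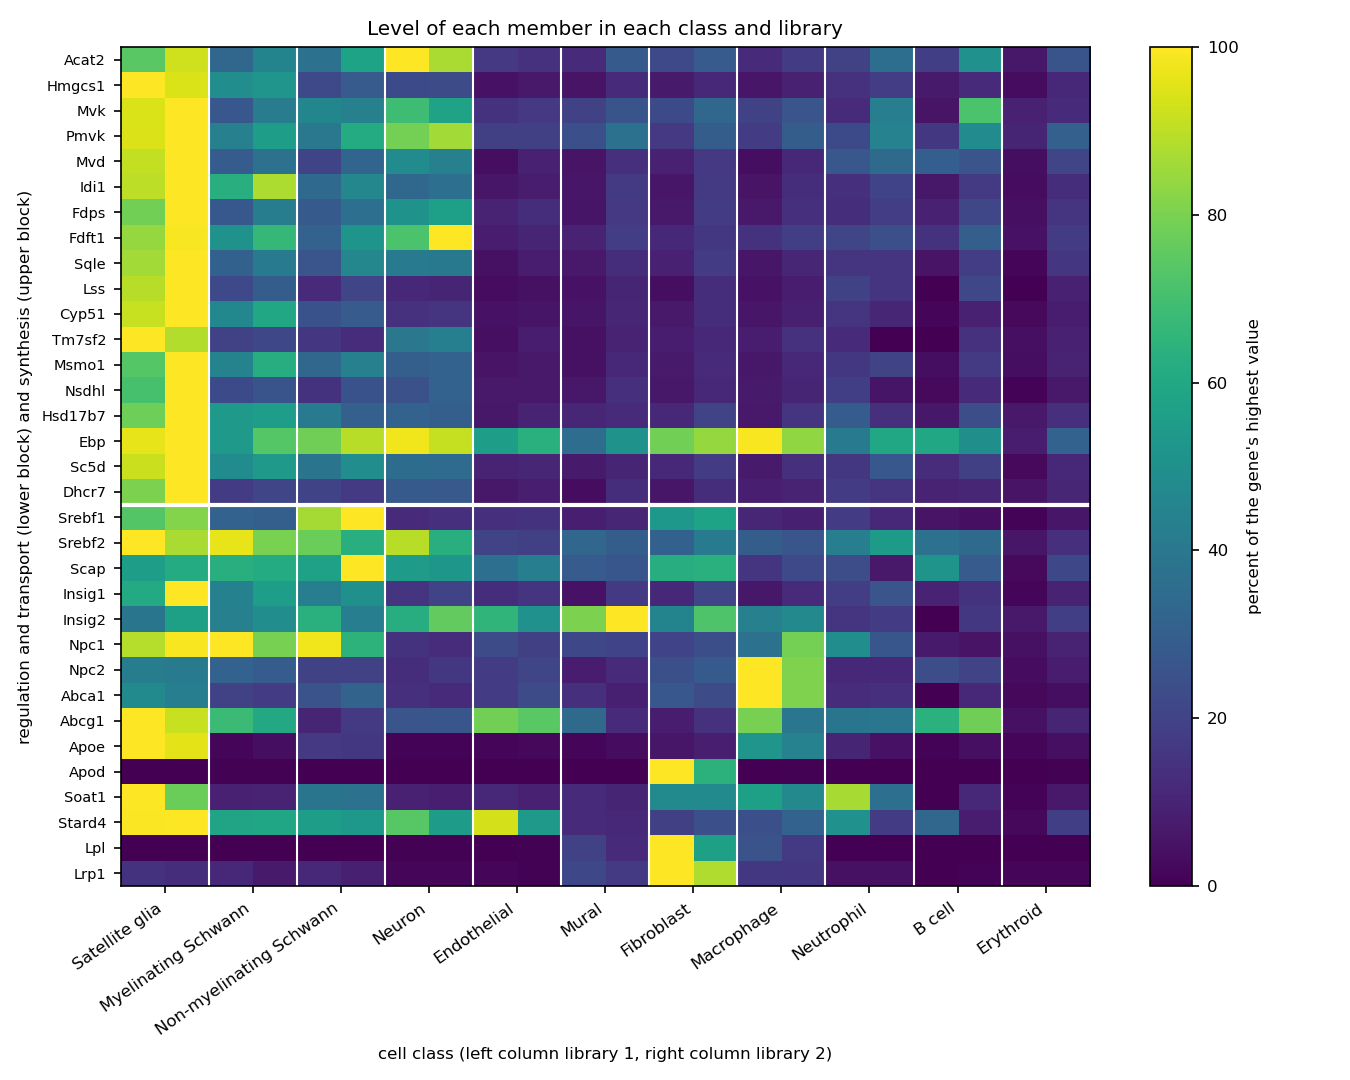
Level of each of the 33 genes (y axis, 18 synthesis genes above the white line) in 11 cell classes (x axis), with 1 column per library, as a percent of the gene's highest value. The synthesis block is brightest in satellite glia for 17 of 18 genes by the mean of both libraries, while the block below it peaks in several classes.

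The first comparison set satellite glia against neurons, the cells they wrap. With edgeR's quasi-likelihood test at an adjusted p of 0.05, 16 of 18 synthesis genes were higher in satellite glia, none was lower, and 2 (Acat2 and Ebp) did not pass. Over all 12996 genes tested, 66.9% passed in either direction, 36.5% as higher in satellite glia and 30.4% as lower. Wherever no synthesis gene is given here as passing in a direction, 0 did so at an unadjusted p under 0.05 too, by edgeR and by DESeq2, except between endothelial and mural cells. The median log2 fold change was 1.61 for the synthesis genes and 0.11 for all genes. With total UMIs in place of TMM scaling, which shifted all genes to a median of -0.18, 13 synthesis genes remained higher and 54.5% higher among all calls became 43.6%. The synthesis genes that no longer passed were Fdps, Fdft1 and Pmvk (edgeR adjusted p = 0.064, 0.674 and 0.457).

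The 5 synthesis genes named in full came from several steps of the pathway. Lss, which closes squalene epoxide into lanosterol, was at 0.883 and 0.991 per 10000 in satellite glia and at 0.109 and 0.102 in neurons. Its log2 fold change was 3.43 ± 0.25 (SE, edgeR adjusted p = 6.97e-11). Both satellite glia values were far above both neuron values, as held for all 5 genes named here.
Cyp51, the lanosterol demethylase, was at 4.13 and 4.50 in satellite glia and at 0.639 and 0.693 in neurons, a log2 fold change of 2.99 ± 0.21 (edgeR adjusted p = 5.83e-11). Hmgcs1, which makes HMG-CoA and supplied the most UMIs to the sum in satellite glia, was at 17.1 and 16.2 against 3.85 and 3.94, a log2 fold change of 2.40 ± 0.25 (edgeR adjusted p = 1.99e-08). Both genes had neuron libraries that lay close together.
Dhcr7, the last reductase of one branch of the pathway, was at 1.18 and 1.47 in satellite glia and at 0.417 and 0.409 in neurons, with a log2 fold change of 1.96 ± 0.21 (edgeR adjusted p = 3.33e-08). Nsdhl was at 1.88 and 2.65 against 0.658 and 0.828, with a log2 fold change of 1.89 ± 0.22 (edgeR adjusted p = 1.15e-07). The satellite glia and neuron libraries did not overlap for either gene.

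Smaller differences were also spread along the pathway. Mvk and Pmvk, the kinases of mevalonate and phosphomevalonate, had log2 fold changes of 0.90 and 0.54. Fdps, which makes farnesyl diphosphate, had 1.00, and Fdft1, which joins it into squalene, had 0.41. Fdft1 passed the test at an adjusted p of 0.0329 by edgeR although its raw levels, 2.49 and 2.93 in satellite glia and 2.12 and 2.96 in neurons, overlapped. Ebp, the sterol isomerase, was at 0.915 and 0.951 against 0.930 and 0.867, with a log2 fold change of 0.35 ± 0.17 (edgeR adjusted p = 0.0733). The remaining called genes, Mvd, Idi1, Sqle, Tm7sf2, Msmo1, Hsd17b7 and Sc5d, had log2 fold changes from 1.34 to 1.81.

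The share of cells with an Hmgcs1 UMI was compared after each cell was thinned to 2000 UMIs and shallower cells were left out. It was 86.6% (95% Clopper-Pearson interval 85.1 to 88.0) of 2276 cells and 85.2% (83.7 to 86.6) of 2432 cells in satellite glia. In neurons it was 55.6% (51.5 to 59.6) of 594 cells and 58.3% (55.0 to 61.6) of 895 cells. The interval covers counting error only. Erythroid cells, which should lack the transcript, gave 10.0% of 80 cells and 21.3% of 197 cells, at median depths of 7848.5 and 3758 UMIs against 8119 and 6904 in satellite glia. The satellite glia and neuron shares were both above that background. Without thinning the order was turned, with 99.5% and 99.8% of neurons and 95.7% and 95% of satellite glia holding a UMI. Neurons carried far more UMIs per cell than satellite glia.

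Among the 15 regulation and transport genes, 11 were higher in satellite glia than in neurons, 1 was lower and 3 did not pass, with a median log2 fold change of 2.11. Over all genes 36.5% were higher and 30.4% lower. Srebf1, which encodes SREBP1, was at 0.957 and 1.06 per 10000 in satellite glia and at 0.155 and 0.178 in neurons, a log2 fold change of 2.90 ± 0.17 (edgeR adjusted p = 2.64e-12). Srebf2, which encodes the SREBP most tied to cholesterol synthesis, was at 1.52 and 1.33 against 1.36 and 0.962, so its raw values overlapped although it passed at a log2 fold change of 0.60. With total UMIs in place of TMM scaling Srebf2 no longer passed (edgeR adjusted p = 0.211). Insig1, itself a target of SREBPs, had a log2 fold change of 2.43, while Scap and Insig2 did not pass.

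Soat1, which esterifies cholesterol for storage, was at 1.35 and 1.04 in satellite glia and at 0.123 and 0.111 in neurons, a log2 fold change of 3.64 ± 0.22 (edgeR adjusted p = 3.38e-12). Lrp1, a receptor for apolipoprotein E particles, was at 0.865 and 0.773 against 0.112 and 0.0912, a log2 fold change of 3.32 ± 0.20 (edgeR adjusted p = 3.28e-12). Npc1, which exports cholesterol from late endosomes, was at 0.882 and 0.980 against 0.146 and 0.127, a log2 fold change of 3.07 ± 0.23 (edgeR adjusted p = 1.55e-10). All 3 had satellite glia libraries clear of the neuron libraries. The cholesterol exporters Abca1 and Abcg1 had log2 fold changes of 2.10 and 2.13.

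Apoe, which encodes apolipoprotein E (chr7:19696109-19699188, minus strand), made up 98.3% of the regulation and transport UMIs of satellite glia. It stood at 901 and 865 per 10000 there and at 9.55 and 9.41 in neurons. The log2 fold change was 6.84 ± 0.64 (edgeR adjusted p = 3.83e-09). Erythroid cells carried 10.7 and 38.5 per 10000, at 7771 and 3938 UMIs per cell against 112486 and 55862 in neurons. How much of the neuron level was RNA of other cells was not tested. The share of cells with an Apoe UMI in thinned erythroid cells was 47.5% and 97.0%, and such shares are not read as expression.

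**Figure D3:**
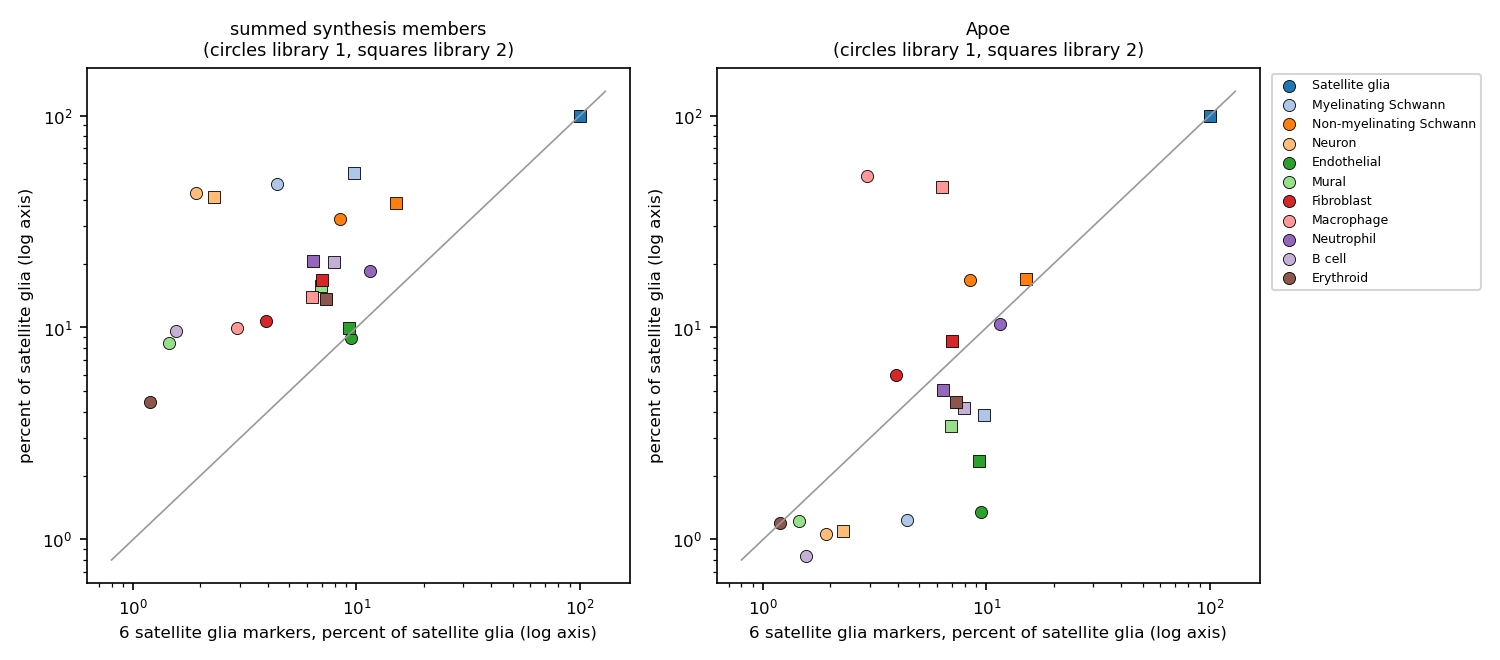
Summed synthesis genes (left) and Apoe (right) in each class as a percent of the satellite glia value of the same library (y axes, log scale), against the level of 6 satellite glia markers as the same kind of percent (x axes, log scale). Macrophages lie far above the line of equality for Apoe at 52.0% and 46.0%, while neurons and myelinating Schwann cells lie above it for synthesis and below it for Apoe.

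The second comparison set myelinating Schwann cells against satellite glia. Of the synthesis genes, 17 of 18 were lower in myelinating Schwann cells and none was higher, against 16.2% and 12.4% of all genes (28.7% in either direction), with a median log2 fold change of -1.27 for the synthesis genes and -0.05 for all genes. With total UMIs in place of TMM scaling, 16 were lower, while the share of calls over all genes that were higher went from 43.4% to 59.6%. The genes named in full lay at early and late steps. Dhcr7 was at 0.256 and 0.309 per 10000 in myelinating Schwann cells and at 1.18 and 1.47 in satellite glia, a log2 fold change of -2.43 ± 0.24 (edgeR adjusted p = 4.99e-08). Tm7sf2, a sterol reductase, was at 0.214 and 0.236 against 1.10 and 0.972, a log2 fold change of -2.41 ± 0.27 (edgeR adjusted p = 4.65e-07). The libraries of the classes did not overlap for either gene.

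Lss, Nsdhl and Mvk followed, at log2 fold changes of -2.11 ± 0.26, -2.0 ± 0.23 and -1.74 ± 0.26 (edgeR adjusted p = 1.87e-06, 6.76e-07 and 1.79e-05). Idi1, which isomerises the isoprene unit, was the synthesis gene that did not pass, at 3.52 and 4.89 against 5.03 and 5.57 (log2 fold change -0.58 ± 0.26, edgeR adjusted p = 0.0985). Hmgcs1 stood at 8.39 and 8.94 in myelinating Schwann cells, near the middle between satellite glia and neurons on the log scale, and was lower than in satellite glia by a log2 fold change of -1.16.

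Of the regulation and transport genes, 9 of 15 were lower in myelinating Schwann cells and 1 was higher, against 16.2% and 12.4% of all genes. With total UMIs in place of TMM scaling 6 were lower, and Abcg1, Npc2 and Lrp1 no longer passed (edgeR adjusted p = 0.0909, 0.256 and 0.0565). Apoe was at 11.0 and 33.5 per 10000 against 901 and 865, a log2 fold change of -5.69 ± 0.60 (edgeR adjusted p = 1.72e-07). Both Schwann values were within the erythroid range, and as a percent of satellite glia they lay under the satellite glia markers (1.23% and 3.87% for Apoe, 4.42% and 9.71% for the markers).
Soat1 was at 0.123 and 0.127 against 1.35 and 1.04, a log2 fold change of -3.48 ± 0.25 (edgeR adjusted p = 8.09e-10). Srebf1 and Abca1 were lower by log2 fold changes of -1.52 ± 0.18 and -1.51 ± 0.23 (edgeR adjusted p = 6.32e-07 and 2.1e-05), and Stard4, a carrier of cholesterol through the cytosol, by -0.99 ± 0.23 (edgeR adjusted p = 0.00222). Srebf2, Scap, Insig2, Npc1 and Lpl did not pass. The gene called higher was Apod, which encodes apolipoprotein D, at 3.98 and 2.81 against 0.845 and 1.02 (log2 fold change 1.78 ± 0.66, edgeR adjusted p = 0.0455). Its call was lost in 4 of the alternatives, with adjusted p from 0.0559 to 0.223 by edgeR or DESeq2. The 7 fibroblast markers moved with it, at 14.6 and 8.96 per 10000 in myelinating Schwann cells and at 4.03 and 3.52 in satellite glia, and fibroblasts held the most Apod of the 11 classes. The part of fibroblast RNA in this call was not tested.

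The third comparison set myelinating against non-myelinating Schwann cells. Here 4 of 18 synthesis genes were higher in the myelinating class and none was lower, against 6.69% and 7.34% of all genes (14.0% in either direction). The median log2 fold change of the synthesis genes was 0.56, and 0.02 for all genes. With total UMIs in place of TMM scaling the share of all calls that were higher went from 47.7% to 33.5%, and 2 synthesis genes were higher. Hmgcs1 was at 8.39 and 8.94 per 10000 in myelinating cells and at 3.78 and 4.93 in non-myelinating cells, a log2 fold change of 1.21 ± 0.25 (edgeR adjusted p = 0.00128). Cyp51 was at 2.10 and 2.69 against 1.13 and 1.28, a log2 fold change of 1.16 ± 0.23 (edgeR adjusted p = 0.00102). For both the libraries of the classes did not overlap.

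Idi1 was at 3.52 and 4.89 against 1.91 and 2.59, a log2 fold change of 1.09 ± 0.28 (edgeR adjusted p = 0.00889). Fdft1, at 1.51 and 1.97 against 0.933 and 1.53, overlapped in its raw values (log2 fold change 0.72 ± 0.19, edgeR adjusted p = 0.0133). With total UMIs in place of TMM scaling, Idi1 and Fdft1 no longer passed (edgeR adjusted p = 0.0833 and 0.238), and the same held without the library term. The satellite glia markers were at 8.06 and 16.9 per 10000 in myelinating and at 15.4 and 26.1 in non-myelinating Schwann cells.

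The regulation and transport genes split in this comparison, with 2 of 15 higher and 3 lower in myelinating cells, against 6.69% and 7.34% of all genes. Abcg1 was at 0.456 and 0.406 per 10000 in myelinating and at 0.0700 and 0.115 in non-myelinating cells, a log2 fold change of 2.55 ± 0.45 (edgeR adjusted p = 0.000291). The non-myelinating values came from 266 and 148 cells, and that of library 1 lay under 0.1 UMIs per 10000, so the size of this fold is uncertain. Npc2, the soluble partner of Npc1 in late endosomes, was higher by a log2 fold change of 0.82 ± 0.21 (edgeR adjusted p = 0.0108), a call lost with total UMIs in place of TMM scaling and with a stricter marker gate. In the other direction, Apoe was at 11.0 and 33.5 against 151 and 146, a log2 fold change of -2.72 ± 0.53 (edgeR adjusted p = 0.000781).
The non-myelinating Apoe values lay well above the erythroid level and were 16.7% and 16.9% of satellite glia, where the markers stood at 8.43% and 15%. Soat1 and Srebf1 were lower in myelinating cells by log2 fold changes of -1.85 ± 0.32 and -1.38 ± 0.20 (edgeR adjusted p = 0.000212 and 2.95e-05). Srebf1, at 1.13 and 1.31, had its highest level of all classes in non-myelinating Schwann cells.

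Endothelial and mural cells, the lining and the contractile coat of vessels, were compared next. Of the synthesis genes, 1 of 18 passed, Pmvk, lower in endothelial cells at 0.574 and 0.576 per 10000 against 0.747 and 1.15 (log2 fold change -0.61 ± 0.23, edgeR adjusted p = 0.0413). Over all genes 18.5% were higher and 16.2% lower (34.7% in either direction). The summed synthesis level was 5.42 and 6.80 in endothelial cells and 5.14 and 10.7 in mural cells, which overlapped and lay near the 2.71 and 9.32 of erythroid cells. None was higher, where 1 had an unadjusted p under 0.05 by edgeR and 1 by DESeq2. The call for Pmvk was lost in 6 alternatives, with adjusted p from 0.0607 to 0.22 by edgeR.

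Of the regulation and transport genes, 4 of 15 were higher in endothelial cells and 3 lower, shares near the 18.5% and 16.2% of all genes. Stard4 was at 0.605 and 0.349 per 10000 in endothelial cells and at 0.0795 and 0.0740 in mural cells, a log2 fold change of 2.69 ± 0.35 (edgeR adjusted p = 2.22e-06). Abcg1 was at 0.528 and 0.499 against 0.230 and 0.0814, a log2 fold change of 1.84 ± 0.32 (edgeR adjusted p = 7.49e-05). Npc2 and Abca1 were also higher in endothelial cells, by 1.06 ± 0.21 and 0.95 ± 0.27 (edgeR adjusted p = 0.000424 and 0.00778). None of the 4 overlapped between the classes.
Mural cells had more Lrp1, at 1.27 and 0.999 against 0.0842 and 0.0384 (log2 fold change -4.18 ± 0.25, edgeR adjusted p = 2.85e-11), and more Lpl, the lipase that unloads circulating lipoproteins, at 0.683 and 0.429 against 0.00510 and 0.0165 (log2 fold change -5.42 ± 0.43, edgeR adjusted p = 1.53e-08). The endothelial Lpl values rested on 2 and 9 UMIs. Fibroblast markers moved with both genes, at 9.52 and 7.92 in mural and 0.801 and 0.991 in endothelial cells, and their part was not tested. Srebf2 was lower in endothelial cells by -0.57 ± 0.21 (edgeR adjusted p = 0.0421), a call lost in 5 alternatives.

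**Figure D4:**
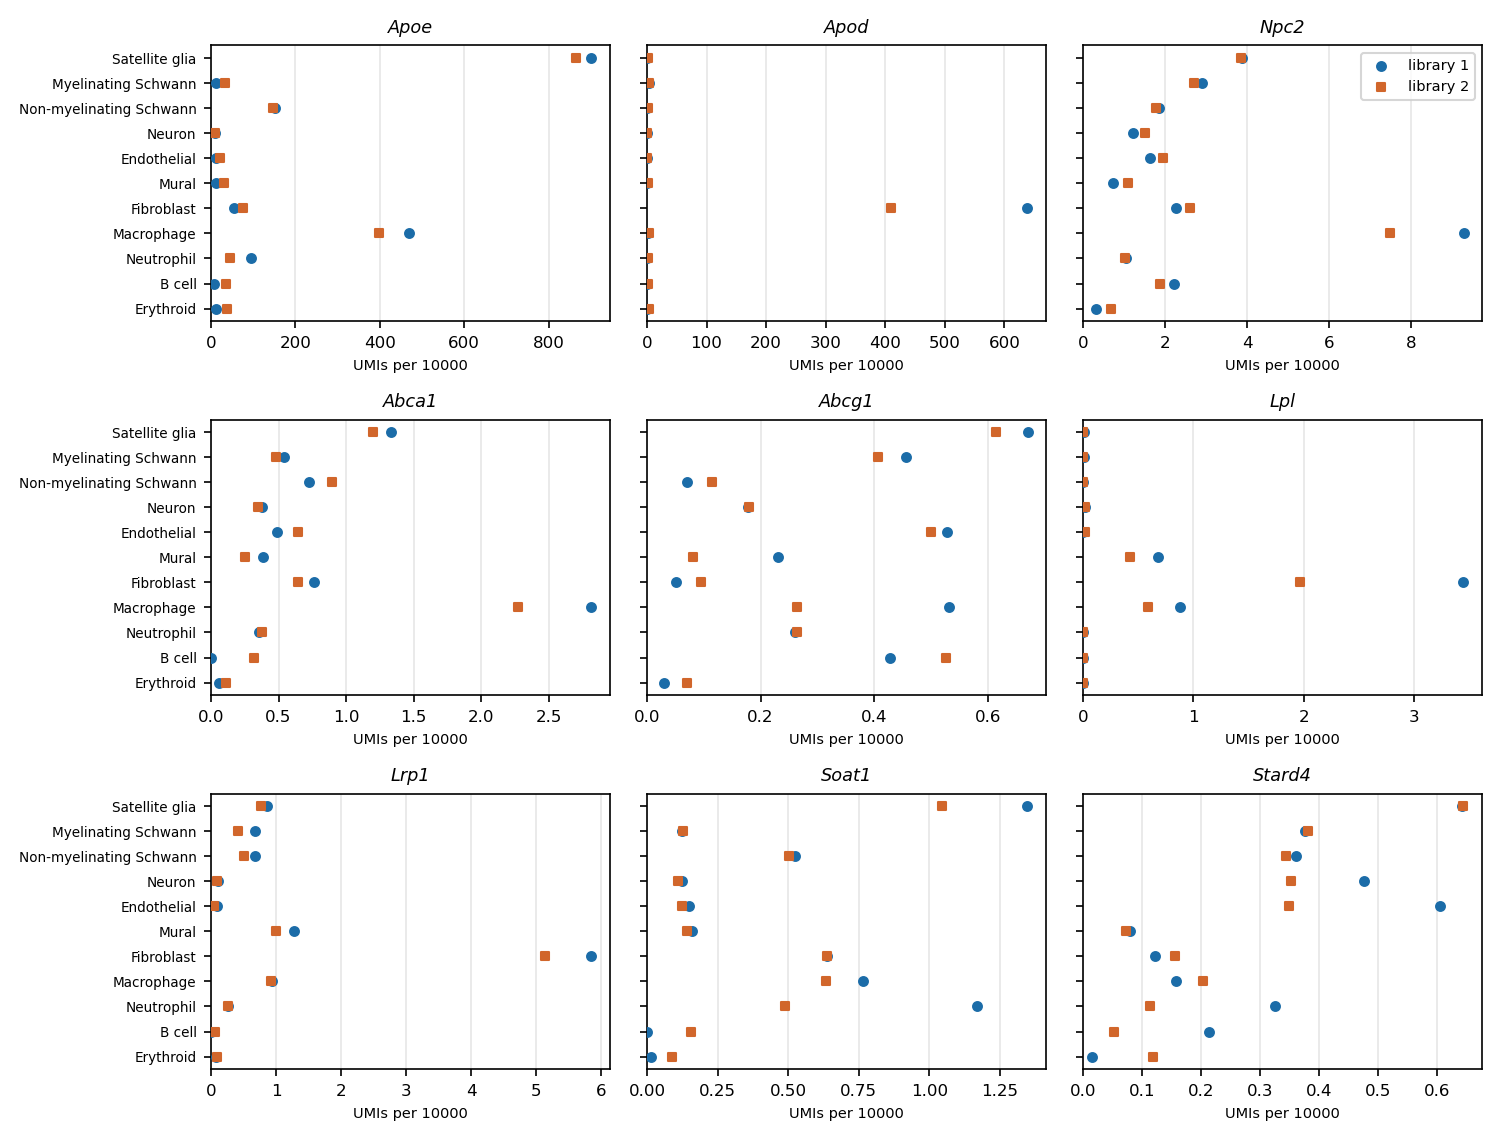
UMIs per 10000 UMIs (x axis) of 9 regulation and transport genes in 11 cell classes (y axis), library 1 as circles and library 2 as squares. Apoe peaks in satellite glia, Apod, Lpl and Lrp1 in fibroblasts, and Npc2 and Abca1 in macrophages.

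Macrophages were set against satellite glia as the other class rich in Apoe. Synthesis was lower in macrophages for 17 of 18 genes and higher for none, against 23.5% lower and 22.2% higher over all genes (45.7% in either direction), with a median log2 fold change of -3.27 against -0.03. Lss was at 0.0466 and 0.0755 per 10000 in macrophages and at 0.883 and 0.991 in satellite glia, a log2 fold change of -3.96 ± 0.39 (edgeR adjusted p = 1.92e-08). Hmgcs1 was at 1.03 and 1.59 against 17.1 and 16.2, a log2 fold change of -3.74 ± 0.27 (edgeR adjusted p = 2.03e-10). Cyp51, Mvd and Sqle, which encode the lanosterol demethylase, the mevalonate decarboxylase and squalene epoxidase, were lower by -3.70 ± 0.25, -3.66 ± 0.35 and -3.52 ± 0.30 (edgeR adjusted p = 7.11e-11, 1.49e-08 and 2.98e-09). No library of macrophages reached the satellite glia level for any of these 5 genes. The macrophage values rested on 5 and 10 UMIs for Lss and on 5 and 18 UMIs for Mvd.

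Ebp was the exception among the synthesis genes, at 0.942 and 0.793 in macrophages against 0.915 and 0.951 (log2 fold change -0.13 ± 0.19, edgeR adjusted p = 0.606). Ebp also stood at 0.748 and 0.802 in fibroblasts. Of the SREBP genes and their handlers 4 were lower, Insig1 by -3.14 ± 0.28, Srebf1 by -3.03 ± 0.24, Srebf2 by -1.77 ± 0.20 and Scap by -1.67 ± 0.31 (edgeR adjusted p = 3.91e-09, 6.19e-10, 2.28e-07 and 0.000116). Insig2 did not pass, at 0.280 and 0.302 against 0.250 and 0.366 (log2 fold change -0.10, edgeR adjusted p = 0.792).

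Over the 15 regulation and transport genes, 8 were lower in macrophages and 3 higher, against 23.5% and 22.2% of all genes. The share that was higher lay near that of all genes. Npc2 was at 9.27 and 7.47 per 10000 against 3.89 and 3.86, a log2 fold change of 1.09 ± 0.20 (edgeR adjusted p = 9.7e-05). Abca1 was at 2.82 and 2.27 against 1.33 and 1.20, a log2 fold change of 0.98 ± 0.22 (edgeR adjusted p = 0.000739). Lpl was at 0.877 and 0.589 against 0.00660 and 0.00576, a log2 fold change of 6.83 ± 0.37 (edgeR adjusted p = 6.18e-11). All 3 were clear of satellite glia in both libraries, and the satellite glia Lpl values rested on 13 and 10 UMIs.
Stard4 was lower by -1.83 ± 0.29 (edgeR adjusted p = 1.91e-05). Apoe stood at 468 and 398 in macrophages, with a log2 fold change of -1.03 ± 0.50 that did not pass (edgeR adjusted p = 0.0971), while the satellite glia markers there were at 2.92% and 6.30% of satellite glia. Macrophages thus combined Apoe at 52.0% and 46.0% of the satellite glia level with synthesis at 9.95% and 13.9% of it.

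Fibroblasts, which entered the fit but none of its comparisons, led 3 transport genes, given here as levels. Apod was at 638 and 410 per 10000, against 3.98 at most in any other of the 11 classes. Cells gated as perineurial, outside the fit, had 52.5 and 23.8. Lrp1 was at 5.85 and 5.14, with mural cells next at 1.27 and 0.999. Lpl was at 3.44 and 1.96, with macrophages next among the 11 classes. Cells gated as monocytes, outside the fit, had 0.586 and 1.09. For all 3 the lower fibroblast library lay above the higher library of the next class. Insig2 was highest in mural cells, at 0.516 and 0.644, just above neurons at 0.40 and 0.488.

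**Figure D5:**
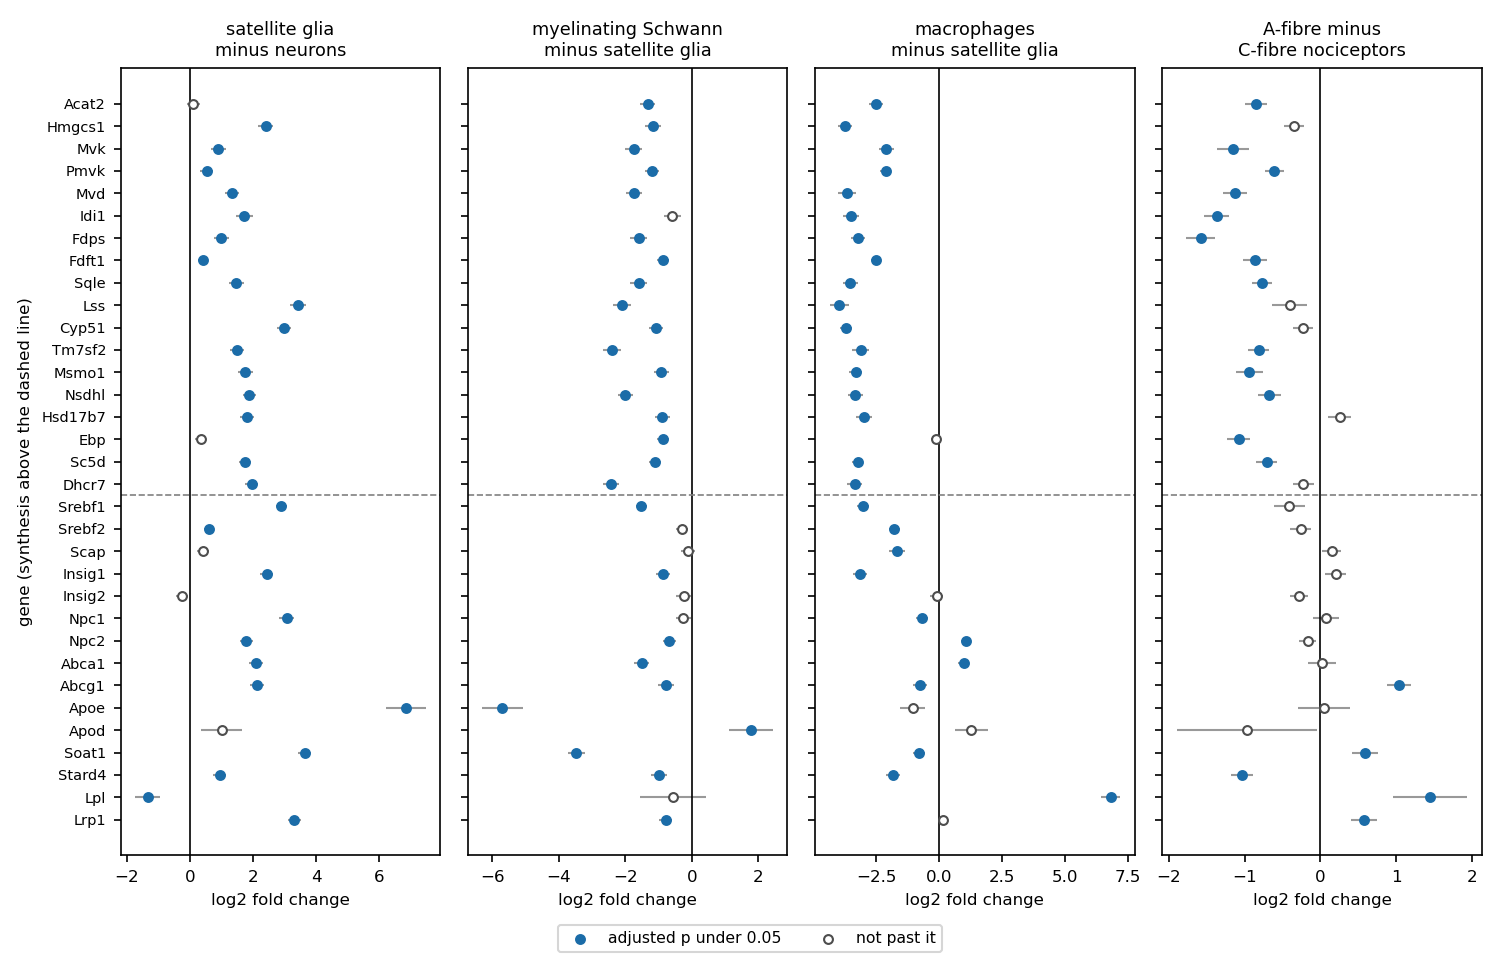
Log2 fold changes (x axes) with standard errors (bars) of the 33 genes (y axis) in 4 comparisons, with filled points past an adjusted p of 0.05 by edgeR and open points not. The 18 synthesis genes above the dashed line lie on 1 side of 0 in the first 3 panels, with Acat2 at 0.11 in the first panel and at -0.20 with total UMIs in place of TMM scaling, and Hsd17b7 alone lies to the right of 0 in the last.

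Within neurons, synthesis was highest in the NP1 class, the Mrgprd nociceptors, at 33 and 33.4 per 10000. The peptidergic PEP class had 27.5 and 29.8 and the TH class of touch C-fibres 26.6 and 24.8. The itch class NP3 had 19.6 and 18.7, and the neurofilament-rich NF class of A-fibres 15.3 and 21.4. NP1 was clear of every other subclass in both libraries, while NP3 and NF overlapped. The regulation and transport sum without Apoe and Apod barely varied, between 4.98 and 5.86 over all 5 subclasses and both libraries.

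The NF class, with 57 and 91 cells, was tested against C-fibre nociceptors, taken as the mean of NP1 and PEP. The PEP markers include Kit, so that class may hold some thinly myelinated cells. Of the synthesis genes 13 of 18 were lower in NF and none was higher, against 18.3% lower and 22.8% higher over the 13445 genes tested (41.1% in either direction), with a median log2 fold change of -0.79 against -0.02. The count was also 13 with total UMIs in place of TMM scaling, where the share of all calls that were higher went from 55.5% to 66.3%. Fdps was at 1.90 and 2.96 per 10000 in NF and at 6.20 and 7.06 in C-fibre nociceptors, a log2 fold change of -1.58 ± 0.19 (edgeR adjusted p = 4.41e-05). Idi1 was at 0.802 and 1.19 against 2.29 and 2.44, a log2 fold change of -1.37 ± 0.16 (edgeR adjusted p = 4.48e-05). Neither gene overlapped between the groups.

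Mvk, Mvd and Ebp were lower by -1.15 ± 0.21, -1.13 ± 0.16 and -1.07 ± 0.15 (edgeR adjusted p = 0.00118, 0.000194 and 0.00017). Hmgcs1, Lss, Cyp51, Hsd17b7 and Dhcr7 did not pass. Hmgcs1 was at 3.02 and 4.11 in NF and at 4.34 and 4.05 in C-fibre nociceptors, which overlapped. NF neurons had lower median depths, 68734 and 37624 UMIs, than NP1 neurons, with 161938 and 79104. PEP neurons lay nearer to NF, with 88694 and 56978. The part of depth in the difference was not tested.

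Of the regulation and transport genes 4 of 15 were higher in NF and 1 lower, the first a share near the 22.8% of all genes, and with DESeq2 only 1 was higher. Abcg1 was at 0.292 and 0.270 in NF against 0.177 and 0.138, a log2 fold change of 1.03 ± 0.16 (edgeR adjusted p = 0.000282). Soat1 and Lrp1 were higher by 0.58 ± 0.17 and 0.57 ± 0.17 (edgeR adjusted p = 0.0179 and 0.0199), and neither passed with DESeq2 (adjusted p = 0.0821 and 0.0942). Lpl also passed with edgeR, at 0.0170 and 0.0358 in NF against 0.00727 and 0.00996, but not with DESeq2 (adjusted p = 0.102). Its NF values rested on 10 and 15 UMIs. Stard4 was lower, at 0.275 and 0.220 against 0.573 and 0.379, a log2 fold change of -1.03 ± 0.15 (edgeR adjusted p = 0.000212). Apoe values in NF, 5.02 and 13.3, spanned those of C-fibre nociceptors.

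Neighbouring pathways were counted between satellite glia and neurons for context. Of 14 genes of fatty acid synthesis, a pathway controlled mostly by SREBP1, 11 were higher in satellite glia and 3 lower, against 36.5% and 30.4% of all genes. Fads2, a fatty acid desaturase, was at 4.88 and 4.96 per 10000 against 0.359 and 0.349 (log2 fold change 4.09 ± 0.29, edgeR adjusted p = 4.48e-11), whereas Acly, which makes cytosolic acetyl-CoA, was lower in satellite glia at 1.49 and 1.65 against 2.94 and 3.31 (log2 fold change -0.69 ± 0.22, edgeR adjusted p = 0.00834). The libraries of satellite glia and neurons did not overlap for either gene.
Of 32 further uptake and transport genes tested, 15 were higher and 8 lower, against 36.5% and 30.4% of all genes. Vldlr, a lipoprotein receptor, was at 2.10 and 1.68 in satellite glia and at 0.0629 and 0.0442 in neurons (log2 fold change 5.44 ± 0.22, edgeR adjusted p = 6.57e-14). Lrp8, another receptor for apolipoprotein E, went the other way at 0.0239 and 0.0484 against 0.303 and 0.259 (log2 fold change -2.75 ± 0.33, edgeR adjusted p = 1.79e-07). Of 15 further genes of sterol synthesis and SREBP control, 6 were higher and 3 lower in satellite glia, against the same shares. Neither of these 2 lists is read as set apart from all genes.

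Against satellite glia, fatty acid synthesis was lower for 10 of 14 genes in myelinating Schwann cells and for 12 of 14 in macrophages, and higher for 1 and for none. Over all genes 16.2% were lower and 12.4% higher in myelinating Schwann cells, and 23.5% lower and 22.2% higher in macrophages. Between Schwann classes fatty acid synthesis divided, with 2 genes higher and 5 lower in myelinating cells, against 6.69% and 7.34% of all genes. There Elovl6, an elongase of saturated fatty acids, was higher at 2.22 and 1.97 per 10000 against 0.910 and 0.894 (log2 fold change 1.41 ± 0.27, edgeR adjusted p = 0.000579), and Fads2 was lower at 0.442 and 0.678 against 2.65 and 2.57 (log2 fold change -2.09 ± 0.30, edgeR adjusted p = 2.36e-05). The libraries of the classes did not overlap for either gene.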

How the data were processed

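A pair of droplet single-cell libraries was analysed from the deposited matrices, raw UMI counts for each gene in each barcode. The submitters' processing notes name CASAVA 1.8, Cell Ranger 5.0.1 and build mm10. Libraries were made with a 10x 3' v3.1 kit, per the labels' protocols. Names of barcodes and genes came from further deposited lists (unit other, no measurements). Not given in the sources used here are the annotation release, how cells were called, and whether strand and introns counted. Members, lists and comparisons were chosen with earlier results of these data known.

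Barcodes with 500 genes or more and at most 20% mitochondrial UMIs were kept (8329 and 11290). Scrublet in scanpy 1.11.5 marked 1 and 0 doublets by its automatic threshold, so barcodes with the top scores were left out instead, 0.8% for every 1000 cells in a library (555 and 1020). For the gates, each marker's log level was divided by its mean in the 1% of cells with most of it, and capped at 1. A cell's score for a class was the mean of these fractions over the class's markers. The gate needed a score of at least 0.3, 1.25 times the next class, and 3 markers detected. Cells outside the gates numbered 876 and 1455, and 417 and 704 cells lay within 10% of the score needed. The scoring and the neuron minimum of 10000 UMIs were set after depths and gate sizes were seen. Classes with under 20 cells in a library, and cycling cells, stayed out.

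UMIs were summed per class and library and tested with edgeR 4.0.16 (R 4.3.3) by the quasi-likelihood test with TMM factors, class and library terms, and Benjamini-Hochberg adjustment over all genes at 0.05. For broad classes this meant 22 sums from 11 classes and 12996 genes, with 10 residual degrees of freedom. For neuron subclasses it meant 10 sums from 5 classes and 13445 genes, with 4. Library is a block because classes of 1 library share it. The fit averages log levels where a side has 2 classes, while printed levels average the levels. All 33 members passed the filter on low counts in both fits. Named in full were at most 5 members per direction in each of synthesis and transport, past the threshold, with the same sign in each library and at 0.1 UMIs per 10000 or more on the higher side. Other lists gave at most 3 examples a direction.

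A UMI count limits precision: intervals cover counting error only. Acat2 has a close copy, Acat3, among the counted genes, and reads they share may be divided. By GENCODE mouse release 21, 8 members are overlapped by another counted gene on the other strand and 2 (Fdps and Tm7sf2) on the same strand. Alternatives were total UMIs, DESeq2 1.42.0, no filter, no library term, a stricter gate (0.4, 1.5 times, 4 markers), Leiden clusters made without the pathway genes, no doublet removal, only the compared classes, each library left out, and, added after seeing the data, no neuron minimum.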

Additional observations from a re-analysis of the deposited data

Results flagged for a closer look

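Synthesis genes were also counted in barcodes that entered no comparison. Barcodes with neuron markers but under 10000 UMIs gave a summed synthesis level of 26.5 UMIs per 10000 (mean of both libraries), at 23.5 in library 1 and 29.4 in library 2, near the 26.4 and 28.1 of the gated neurons. Their Apoe level was 42.8 and 85.0, against 9.55 and 9.41 in gated neurons. Cells gated as monocytes, 18 and 28 in number, gave 7.11, and cells gated as perineurial, 12 and 31 in number, gave 7.93. Both means lay near those of erythroid cells (6.01), mural cells (7.91) and macrophages (7.77). They are listed because they lie outside the tested classes and above the limit that a count of 0 allows.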

How the results depend on the processing

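Of 601 values of the 60 member results named above under an alternative, 571 counted as unchanged, 24 kept only their direction, 6 moved and 0 turned. The unchanged values include 56 without library 1 and 58 without library 2, which have no p-value and were judged by fold against the spread between libraries. The other unchanged values kept their direction and their side of the threshold. The 6 that moved, 4 without library 1 and 2 without library 2, went past that spread. Members were named only if alike in sign in each library, so none could turn with a library left out, and these values are no check of direction. Without the library term (no replicate block), 6 of the 60 lost their call. Counts of members called that way were 24 higher in satellite glia than in neurons (27 with the block), 20 lower (26) and 0 higher (1) in myelinating Schwann cells than in satellite glia, 4 higher (6) than in non-myelinating cells, and 2 lower (4) in endothelial than in mural cells. Total UMIs in place of TMM scaling gave 2 lower in satellite glia than in neurons (1 in the report, the added gene being Insig2), 3 higher between the Schwann classes (6), and 2 lower in endothelial cells. The 1 gene higher in myelinating Schwann cells than in satellite glia, Apod, became 0 without doublet removal, with clusters and with DESeq2. The 4 lower in endothelial cells became 2 with clusters and 7 with DESeq2 or with only the compared classes, and the 4 higher in NF neurons became 1 with DESeq2. Summed regulation and transport levels per 10000 moved in B cells from 26.7 to 75.2 without doublet removal, in neurons from 15.1 to 14.7 (stricter gate), 15.6 (clusters), 15.8 (no doublet removal) and 19.4 (no neuron minimum, chosen after seeing the data), in non-myelinating Schwann cells from 159 to 164, 179 and 165 (stricter gate, clusters, no doublet removal), and in satellite glia from 898 to 932 (stricter gate) and 848 (clusters). The cause of these moves was not tested, and clusters could not be used for the neuron subclasses. With each library left out, that sum ranged from 11.8 to 41.5 in B cells, 11.6 to 43.4 in erythroid cells, 16.4 to 36.1 in mural cells, 24.6 to 45.0 in myelinating Schwann cells, 49.5 to 99.3 in neutrophils, 17.5 to 26.1 in endothelial cells, 498 to 707 in fibroblasts, 416 to 487 in macrophages, 14.9 to 15.4 in neurons, 157 to 161 in non-myelinating Schwann cells and 880 to 916 in satellite glia. A test on 1 library has no residual spread and was not made. Depth limits the genes under 0.1 UMIs per 10000, such as Lpl in satellite glia, neurons and endothelial cells. The same holds for Lss in macrophages and, in library 1, for Abcg1 in non-myelinating Schwann cells.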

Other observations

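Satellite glia fell into several clusters when clustering was done without the pathway genes, and their synthesis levels differed. In library 1, a cluster of 1696 cells gave a summed synthesis level of 66.8 per 10000 and a cluster of 905 cells gave 37.1. In library 2, beside a cluster of 52 cells at 76.9, clusters of 1346 and 786 cells gave 70.7 and 74.4, and a cluster of 908 cells gave 29.4. Within each library the lower cluster was also lower in the 6 satellite glia markers, at 102 per 10000 against 201 in library 1 and at 59.2 against 182 and 192 in library 2. It was higher in neuron markers, at 18.9 against 12.2 and at 32.4 against 20.1 and 15.3. It also had the highest level of immediate early genes among these clusters of its library, at 58.7 per 10000 against 4.74 in library 1 and at 164 against 20.4 and 140 in library 2. The lower cluster was shallower as well, with median UMIs of 5062 against 8506 in library 1 and 4110 against 6456 and 7878 in library 2. Its Apoe level was 575 against 978 and 299 against 915 and 944. The part of depth or of RNA from other cells in these differences was not tested.

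In neuron subclasses too small for the fit, the TRPM8 class (29 and 14 cells) had a summed synthesis level of 28.0 and 29.2 per 10000 and the NP2 class of Mrgpra3 itch neurons (20 and 18 cells) had 19.1 and 20.0, beside 19.6 and 18.7 in the NP3 itch class.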
